A study of Mus musculus with 19 samples.

Results

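Interferon gamma and the genes that carry its signal were followed in 19 primary p53/MCA sarcomas of the mouse. The axis was taken as 9 genes, *Ifng*, *Ifngr1*, *Ifngr2*, *Jak1*, *Jak2*, *Irf1*, *Irf8*, *Socs1* and *Batf2*, chosen by their known roles and with earlier results of these data known. All 9 matched 1 row each among the 48795 genes measured. The tumors were 11 sarcomas from Rag2-/- mice, which cannot rearrange antigen receptor genes and so make no mature T or B cells, and 8 from Rag2+/- littermates. In both groups sarcomas were started in the gastrocnemius of mice aged 6 to 10 weeks by an adenovirus that delivered Cas9 with the guide sgp53, which cuts the tumor suppressor gene *Trp53*, and then by 300 µg of the carcinogen MCA (3-methylcholanthrene). Both groups were untreated and were harvested at 70 to 150 mm3. The study's source data list 15 of the tumors, 8 Rag2-/- and 7 Rag2+/-. The other 4, the Rag2-/- tumors S41, S46 and S51 and the Rag2+/- tumor S56, are in the deposited table and were kept. RNA was taken from whole tumor pieces, so tumor cells, host cells and surrounding muscle were measured together.

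Interferon gamma is a cytokine made chiefly by natural killer (NK) cells and T cells. It binds a receptor of *Ifngr1* and *Ifngr2* chains, which activates the kinases JAK1 and JAK2. The signal reaches gamma-activated sites in promoters such as that of *Irf1*. The IRF1 protein in turn drives antigen presentation and chemokine genes, and SOCS1 shuts the kinases off. In sarcomas the pathway is known for immune recognition and for the selection of less immunogenic tumor cells.

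Of the axis genes, 6 were high together in 1 tumor described below, and promoters are shown for the 4 of the 6 whose windows held a match to the motifs searched, *Irf1*, *Irf8*, *Socs1* and *Ifng*. The window of *Jak2* held none, and *Batf2* had no window. The RefSeq table (GRCm38.p6) held windows for 8 of the 9 genes, 10 windows in all, with a pair each for *Irf1* and *Irf8*. Each window of 250 bases before to 50 after the start was searched on both strands for TTCNNNGAA, the core of the gamma-activated site, and for GAAANNGAAA, the core of the interferon-stimulated response element bound by IRF proteins. The first was present in 3 of the 10 windows, those of *Irf1*, *Irf8* and *Ifng*, and in 2726 of all 32851 windows (8.3%). The second was present in 1 of the 10, that of *Socs1*, and in 1131 of 32851 (3.44%). The 250 bases before each start follow, 5′ to 3′ on the gene's strand, with the matches in capitals. The match lay 90 bases before the start in *Irf1*, 171 and 153 bases before it in *Irf8*, and 249 before it in *Ifng*. In *Socs1* a pair of matches 83 and 77 bases before the start shared letters and reads as 1 run of capitals. A match describes these letters and is not evidence of binding.
Irf1, chr11:53769764-53770013, plus strand: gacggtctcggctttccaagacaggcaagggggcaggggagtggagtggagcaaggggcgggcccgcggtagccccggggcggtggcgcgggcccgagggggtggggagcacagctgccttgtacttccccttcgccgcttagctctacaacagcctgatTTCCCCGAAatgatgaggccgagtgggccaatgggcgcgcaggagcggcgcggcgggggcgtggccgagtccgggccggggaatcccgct
Irf8, chr8:120736108-120736357, plus strand: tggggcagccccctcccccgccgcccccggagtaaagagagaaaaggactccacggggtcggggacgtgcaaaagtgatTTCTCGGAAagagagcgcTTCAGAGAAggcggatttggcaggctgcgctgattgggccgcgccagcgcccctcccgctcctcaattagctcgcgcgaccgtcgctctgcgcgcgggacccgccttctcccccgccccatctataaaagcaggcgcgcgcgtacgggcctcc
Socs1, chr16:10785537-10785786, minus strand: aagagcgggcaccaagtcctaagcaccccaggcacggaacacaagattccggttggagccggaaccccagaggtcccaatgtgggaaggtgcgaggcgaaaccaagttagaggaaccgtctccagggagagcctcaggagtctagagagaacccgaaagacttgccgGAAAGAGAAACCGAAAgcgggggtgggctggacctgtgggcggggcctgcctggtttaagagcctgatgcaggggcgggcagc
Ifng, chr10:118440796-118441045, plus strand: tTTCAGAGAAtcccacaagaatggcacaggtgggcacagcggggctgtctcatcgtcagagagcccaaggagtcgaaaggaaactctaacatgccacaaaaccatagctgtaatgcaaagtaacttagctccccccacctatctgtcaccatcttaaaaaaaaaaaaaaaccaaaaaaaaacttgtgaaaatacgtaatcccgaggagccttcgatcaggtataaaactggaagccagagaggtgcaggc

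Values are the authors' upper-quartile normalized FPKM (fragments per kilobase of transcript, scaled for depth) after adding 0.1, on a log2 scale, so a gene listed at 0 sits at -3.32. Depth, estimated from the steps between low values, was 25.3 to 33.5 M fragments on genes in 17 tumors, 5.2 M in S41, and could not be estimated in S56. *Rag2* itself was read at -2.05 to 0.36 in Rag2-/- and -2.33 to -0.57 in Rag2+/- tumors. A gene-level value does not separate deleted from retained exons and so checks nothing, but lymphocyte genes followed the labels. *Cd3e*, a chain of the T cell receptor complex, was listed at 0 in all 11 Rag2-/- tumors and averaged 1.47 in Rag2+/- tumors (difference -4.80 ± 0.354 (SE), limma adjusted p = 4.04e-08). Tumor S51 stood apart from the other 18 and is described on its own, and results that rest on it are given with and without it. With bulk RNA, fewer cells of a type and less RNA per cell cannot be told apart.

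The 9 genes spanned a wide range of levels on the per-length scale. Over the 19 tumors the median normalized FPKM was 55.9 for *Ifngr1*, 49.3 for *Jak1*, 32.3 for *Ifngr2*, 25.3 for *Irf1*, 22.2 for *Irf8*, 14.6 for *Jak2*, 9.36 for *Socs1*, 2.55 for *Batf2* and 0.22 for *Ifng*. *Ifngr1* and *Jak1* could not be ordered, with a within-tumor difference in log2 level of 0.03 ± 0.51 (SD, n = 19). *Jak1* exceeded *Ifngr2* in 18 of 19 tumors, by 0.74 ± 0.31. From *Ifngr2* down to *Socs1* each neighbour differed from the next by less than the SD across tumors. *Socs1* exceeded *Batf2* in 19 of 19 tumors, by 1.77 ± 0.66, and *Batf2* exceeded *Ifng* in 19 of 19, by 3.34 ± 0.91. The cytokine was thus the lowest of the 9 in every tumor. Other genes are annotated across 5 of the 9, *Gm49751* across *Ifng*, *Raver2*, *Gm24468* and *Gm12785* across *Jak1*, *Gm17334* across *Irf1*, *Gm20388* across *Irf8*, and *Arl2*, *n-R5s19* and *Gm5510* across *Batf2*. How reads in these overlaps were assigned is not known, and the counting is not stated to use strand.

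**Figure D1:**
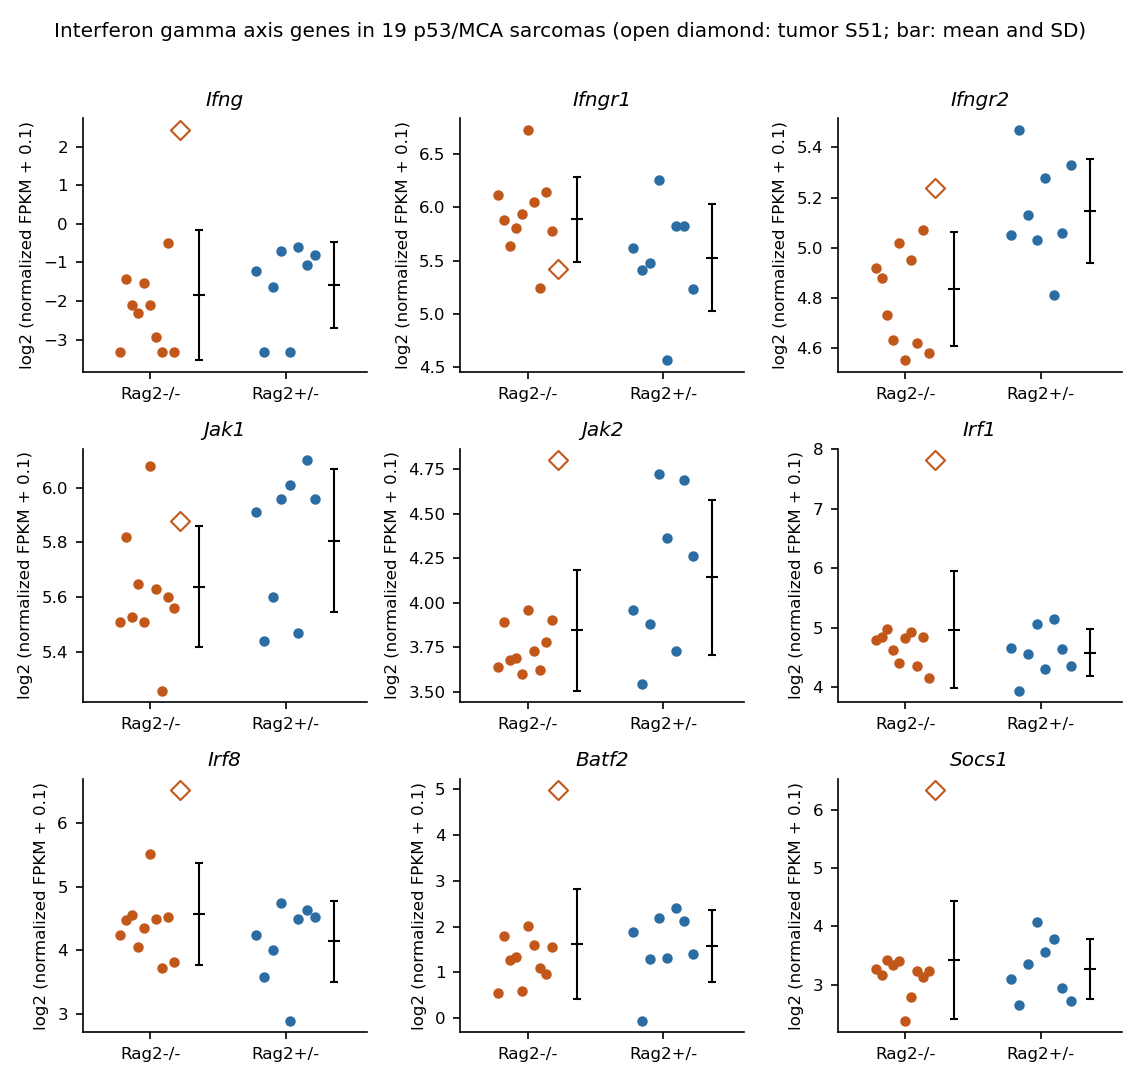
Log2 (normalized FPKM + 0.1) of the 9 axis genes in each of 11 Rag2-/- (orange) and 8 Rag2+/- (blue) tumors, each panel on its own vertical scale that does not start at 0, with the mean and SD of each group in black and S51 as an open diamond. S51 is the highest of the 19 tumors for *Ifng*, *Jak2*, *Irf1*, *Irf8*, *Batf2* and *Socs1*, and the genotypes overlap in all 9 panels.

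The genotypes were compared to ask whether hosts without T and B cells showed less of the interferon gamma axis. Limma, a linear model that shares the estimate of variance across genes, was fitted to all genes with a normalized FPKM above 0.1 in at least 8 tumors, and p-values were adjusted over all of them. None of the 9 genes passed at an adjusted p of 0.05 (adjusted p from 0.314 to 0.961), against 22 of 16663 genes tested (0.132%), all 22 lower in Rag2-/- tumors. At an unadjusted p under 0.05 the count was 1 of 9, lower in Rag2-/- tumors, against 15.4% of all genes, 8.85% lower and 6.56% higher. Without S51 none was called and 2 of 9, *Ifngr2* and *Jak2*, had an unadjusted p under 0.05, against 29.1% of all genes. The values of the genotypes overlapped for 9 of 9 genes, as they did for all but 14 of the 16663 (0.084%). The exact permutation test of the difference in means, two-sided over 75582 splits of the tumors and not adjusted for the 9 genes, gave the same single gene, *Ifngr2*. All p-values measure the spread between these tumors, which the labels tie to no litter or batch.

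*Ifng* (chr10:118441046-118445892, GRCm38, plus strand) encodes the ligand. In Rag2-/- tumors it ranged from -3.32 to 2.43 with a median of -2.10, and in Rag2+/- tumors from -3.32 to -0.59 with a median of -1.16. It was listed at 0 in 3 of 11 Rag2-/- tumors (S41, S48 and S50) and in 2 of 8 Rag2+/- tumors (S53 and S56). S41 had only 5.2 M fragments on genes, against 31.3 M in S48 and 27.1 M in S50, so its 0 says less. All levels of *Ifng* rest on few fragments. Outside S51 the estimate was at most 20 fragments on the gene, and 1 to 19 in the 7 other Rag2-/- tumors with any. S51 held an estimated 97, or 5.28 normalized FPKM against 0.608 in the next highest tumor, the Rag2-/- tumor S49. The Rag2-/- mean was -1.86 ± 1.68 (SD, n = 11) and the Rag2+/- mean -1.59 ± 1.12 (SD, n = 8). They differed by -0.27 with a 95% interval from -1.63 to 1.09 (exact permutation p = 0.723). Without S51 the difference was -0.70 (exact permutation p = 0.169). The interval includes a shift of 1 log2 unit in either direction.

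*Ifngr1* (chr10:19591949-19610229, plus strand), the ligand-binding chain, was among the more abundant genes. It ran from 5.24 to 6.73 in Rag2-/- tumors (median 5.88) and from 4.56 to 6.26 in Rag2+/- tumors (median 5.55). The highest tumor was S46 (Rag2-/-), which also had the highest mean of 10 macrophage genes, 7.55, and the lowest was S56 (Rag2+/-), which had the lowest, 4.83. The part of macrophage content in this was not tested. The difference between genotypes was 0.36 (95% interval -0.06 to 0.78, exact permutation p = 0.0995), and 0.14 in the 15 listed tumors.

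*Ifngr2* (chr16:91547072-91565623, plus strand), the signaling chain, was the 1 gene with a nominal difference. It lay between 4.55 and 5.24 in Rag2-/- tumors (median 4.88) and between 4.81 and 5.47 in Rag2+/- tumors (median 5.09). Of the Rag2-/- tumors S51 alone exceeded the Rag2+/- median, and the values spread little in either group (SD 0.23 and 0.21). The limma difference was -0.31 ± 0.113 (SE), with a 95% interval from -0.54 to -0.07 and an adjusted p of 0.314 (unadjusted p = 0.0134). The exact permutation p was 0.00879, and without S51 the difference was -0.35 (exact permutation p = 0.0027). With the mean of 12 skeletal muscle genes as a covariate the difference was -0.22 ± 0.117 (SE, unadjusted limma p = 0.0736). That muscle mean ranged from 4.47 to 12.2 in Rag2-/- and 6.65 to 13.2 in Rag2+/- tumors, and 10 of the 12 muscle genes were lower in Rag2-/- tumors at an unadjusted p under 0.05 (8.85% of all genes), none of them adjusted.

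The receptor-bound kinases varied less than most genes. *Jak1* (chr4:101152367-101265282, minus strand) ranged from 5.26 to 6.08 in Rag2-/- tumors and between 5.44 and 6.10 in Rag2+/- tumors, with SDs of 0.22 and 0.26 that were exceeded by 91.6% and 90.9% of genes. Its difference was -0.17 (95% interval -0.42 to 0.08, exact permutation p = 0.142). *Jak2* (chr19:29251828-29313080, plus strand) ranged from 3.60 to 4.80 with a median of 3.73 in Rag2-/- tumors, and from 3.54 to 4.72 with a median of 4.11 in Rag2+/- tumors. Apart from S51 the Rag2-/- tumors sat in a narrow band up to 3.96, while 4 Rag2+/- tumors, S55, S56, S59 and S60, lay at 4.26 to 4.72. The *Jak2* difference was -0.30 (95% interval -0.67 to 0.07, exact permutation p = 0.113). Without S51 it was -0.39 (exact permutation p = 0.0129), and with the muscle mean as a covariate -0.06 ± 0.161 (SE). Of those 4 Rag2+/- tumors S56, S59 and S60 had muscle means of 12.4 or more and S55 had 8.77, while S52, with a muscle mean of 12.1, had *Jak2* at 3.96. The part of muscle content in *Jak2* was not tested beyond that covariate.

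*Irf1* (chr11:53770014-53778374, plus strand), the primary transcription factor of the response, averaged 4.67 in Rag2-/- tumors other than S51 and 4.58 in Rag2+/- tumors. It ranged from 4.16 to 7.82 in Rag2-/- tumors (median 4.82) and from 3.94 to 5.14 in Rag2+/- tumors (median 4.60). S51 was the tumor at 7.82, and the next highest Rag2-/- tumor, S43, was at 4.98. The difference was 0.38 (95% interval -0.35 to 1.10, exact permutation p = 0.399) with S51 and 0.09 without it (exact permutation p = 0.572). With the muscle mean as a covariate and S51 kept it was 0.70 ± 0.36 (SE, unadjusted limma p = 0.0666). Reads of *Irf1* and of the opposite-strand *Gm17334* cannot be told apart where they overlap.

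*Irf8* (chr8:120736358-120756694, plus strand) is induced by interferon gamma and is also a lineage factor of macrophages and dendritic cells. It ranged from 3.73 to 6.52 in Rag2-/- tumors (median 4.48) and from 2.89 to 4.75 in Rag2+/- tumors (median 4.37). The highest tumors were S51 and, at 5.51, the macrophage-rich S46, and the lowest was S56. The difference was 0.43 (95% interval -0.25 to 1.10, exact permutation p = 0.242), 0.23 without S51, and -0.07 in the 15 listed tumors, which include none of those 3.

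*Batf2* (chr19:6140983-6172476, plus strand), a partner of IRF1 in activated macrophages, ran from 0.56 to 4.98 in Rag2-/- tumors (median 1.34) and from -0.06 to 2.41 in Rag2+/- tumors (median 1.64). Its fragment estimates were 10 to 754. *Socs1* (chr16:10782240-10785536, minus strand), the feedback inhibitor, ran from 2.38 to 6.33 (median 3.24) and from 2.65 to 4.08 (median 3.22). S51 was the highest for both, and the next highest of all tumors were the Rag2+/- tumors S58 for *Batf2* and S55 for *Socs1*. The differences were 0.05 (95% interval -0.92 to 1.01, exact permutation p = 0.941) for *Batf2* and 0.16 (95% interval -0.61 to 0.93, exact permutation p = 0.813) for *Socs1*. Both were negative without S51, at -0.29 and -0.13, with exact permutation p of 0.35 and 0.508.

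**Figure D2:**
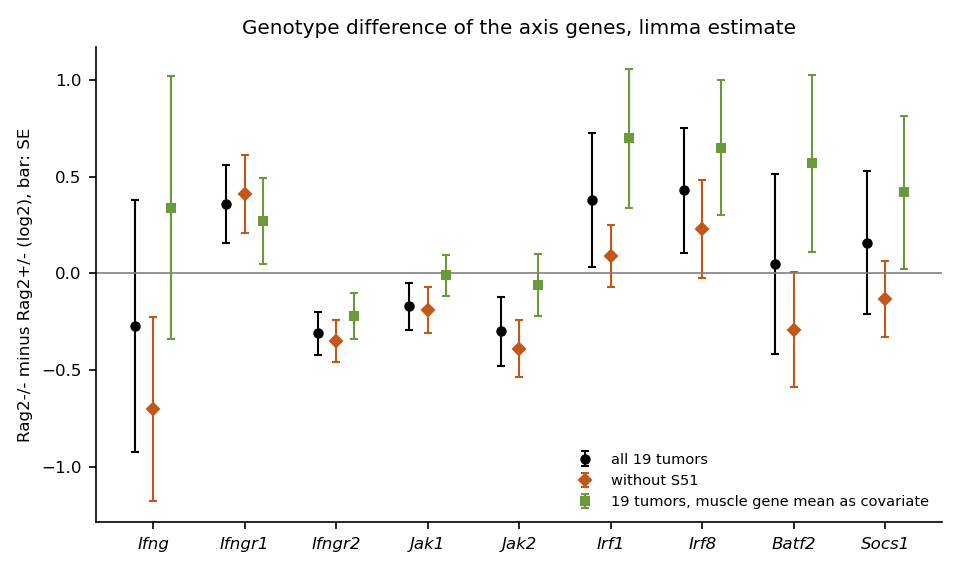
Limma difference in log2 level, Rag2-/- minus Rag2+/-, of the 9 axis genes with its SE, in all 19 tumors (black), without S51 (orange), and in 19 tumors with the mean of 12 muscle genes as a covariate (green). *Ifngr2* is below 0 under all 3, from -0.35 to -0.22, while *Ifng*, *Batf2* and *Socs1* lie on both sides of 0.

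The rest of the pathway was read from lists of known genes, with 66 genes tested and none called by limma in either direction (the permutation test was run on the 9 axis genes only). Of 12 genes that induce *Ifng* or its competence, 1 was higher and 3 were lower in Rag2-/- tumors at an unadjusted p under 0.05, against 6.56% of all genes higher and 8.85% lower, with a median difference of -0.33 against 0.07 over all 16663 genes. Without S51 none was higher and 4 were lower (median -0.45), against 14.4% and 14.7% of all genes. With the muscle mean as a covariate 1 was higher and none lower (median 0.09), against 2.87% and 1.88% of all genes (median -0.01). *Il12a*, a subunit of the cytokine IL-12, averaged -1.36 and 0.51 (difference -1.86 ± 0.75 (SE)). *Il12b*, its other subunit, averaged -0.30 and 0.51, and *Il12rb2*, a chain of its receptor, -0.40 and 0.39. *Il18*, a second inducer, averaged 2.81 and 2.13. The adjusted p-values of these 4 genes were 0.314 to 0.318.

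Of 11 JAK-STAT genes, *Stat2* and *Irf9* were higher in Rag2-/- tumors at an unadjusted p under 0.05, again against 6.56% of all genes. Both encode parts of a complex used by type I interferons. Without S51 the count was again 2 of 11 higher, against 14.4% of all genes, and with the muscle mean as a covariate 2 of 11, against 2.87%. *Irf9* averaged 4.88 and 4.26 (difference 0.61 ± 0.172, adjusted p = 0.313) and *Stat2* 4.58 and 3.83. The phosphatases *Ptpn11* and *Ptpn6* came next, with differences of -0.15 and 0.30.

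Of 28 known targets of interferon gamma, none had an unadjusted p under 0.05, against 15.4% of all genes. Their median difference was 0.16 and 20 of 28 were positive, but without S51 it was -0.05 and 11 of 28. Without S51, 1 of 28 was lower at an unadjusted p under 0.05 and none higher, against 14.7% and 14.4% of all genes. With the muscle mean as a covariate the median was 0.53 and 28 of 28 were positive. In that fit 2 of 28 were higher at an unadjusted p under 0.05, against 2.87% of all genes. The lowest unadjusted p-values were those of *Gbp3*, a guanylate-binding protein (5.58 and 4.93, p = 0.0507), and *Cxcl10*, a T cell chemokine (6.78 and 5.86, p = 0.0644). *Psmb10*, an immunoproteasome subunit, and *Nlrc5*, the activator of MHC class I genes, followed with differences of 0.36 and 0.48. The mean of the 28 ranged from 4.05 to 7.48 in Rag2-/- tumors and between 4.12 and 5.70 in Rag2+/- tumors, with medians of 4.96 and 4.97. Guanylate-binding, GTPase and MHC genes belong to families of close copies, and how shared reads were assigned is not known.

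The 15 genes of the type I interferon response stood differently. All 15 were positive with an unadjusted p under 0.05, against 6.56% of all genes higher at that level, and the median difference was 0.96 (0.86 without S51, again 15 of 15, against 14.4% of all genes higher). *Xist*, the transcript of the inactive X chromosome and so a mark of female hosts, was above 0 in 7 of 11 Rag2-/- and 3 of 8 Rag2+/- tumors. With its level as a covariate 15 of 15 were higher at that p, against 4.05% of all genes (median 0.91), and with the muscle mean 14 of 15, against 2.87% (median 0.88). None passed adjustment. *Oasl2* and *Ifit3*, antiviral effectors, averaged 6.12 and 5.23, and 7.18 and 6.05, in Rag2-/- and Rag2+/- tumors. *Cmpk2* and the inhibitor *Usp18* had differences of 0.93 and 1.18. The 8 other interferon genes examined failed the filter on low values, with 5 of the 8 at -3.32 in all 19 tumors. *Ifnb1*, which encodes interferon beta, reached -0.10 in a Rag2-/- tumor and was at -3.32 in S51.

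**Figure D3:**
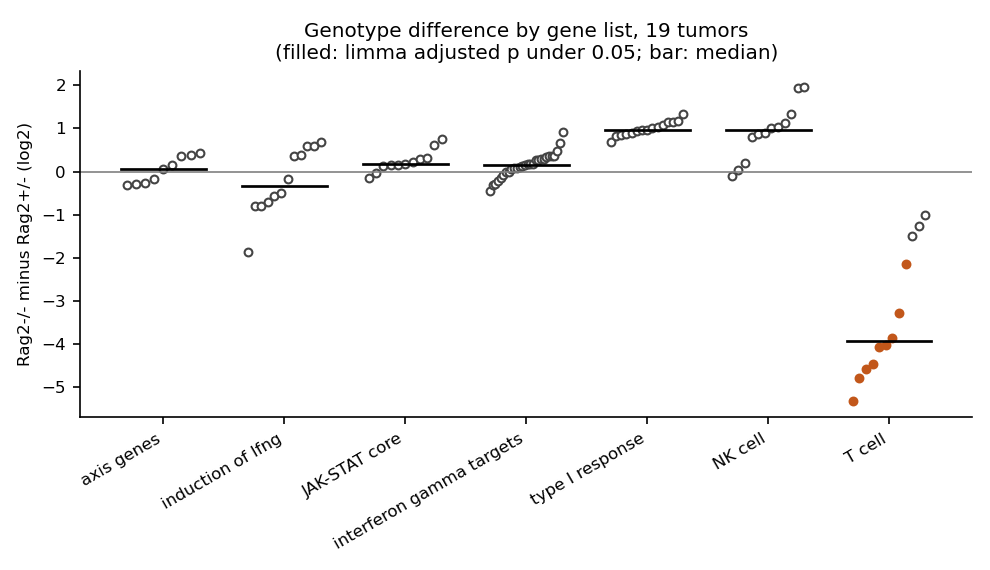
Limma difference in log2 level, Rag2-/- minus Rag2+/-, over 19 tumors for each gene of the axis, 4 pathway lists and the NK and T cell lists, 1 point a gene, filled where the adjusted p was under 0.05, with list medians as bars. The 9 filled points are all in the T cell list, and the 15 type I response genes lie between 0.68 and 1.33.

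Cell type lists gave the setting of these values. Of 12 T cell genes, 9 were lower in Rag2-/- tumors (limma adjusted p at most 0.00153), against 0.132% of all genes called lower. They were led by *Trac* (-2.96 and 2.36), *Cd3e*, *Cd3d*, *Cd3g*, *Cd8a* and *Cd8b1*. The mean of the 12 ranged from -2.80 to -1.91 in Rag2-/- and -0.18 to 1.84 in Rag2+/- tumors, with no overlap. Of 6 B cell genes tested, 3 were called lower, *Igkc*, *Jchain* and *Cd79a*, again against 0.132% of all genes. Of 12 NK cell genes, none was called and 6 were higher at an unadjusted p under 0.05, against 6.56% of all genes, among them *Ncr1* (0.98 and -0.35), *Gzma* (3.75 and 1.79), *Prf1* (2.12 and 0.19) and *Klrb1c* (1.25 and 0.24). The NK mean was 0.47 to 2.20 in Rag2-/- and -1.24 to 1.67 in Rag2+/- tumors. No gene was called among 10 macrophage, 7 dendritic cell, 5 neutrophil, 12 muscle, 6 endothelial, 10 mesenchymal and 5 epithelial genes tested. At an unadjusted p under 0.05, which 6.56% of all genes passed as higher and 8.85% as lower, these lists held 1 gene higher (*Fcgr1*), none, none, 10 lower, 1 lower (*Pecam1*), 1 higher (*Twist1*) and 1 lower (*Krt18*). The part of cell content in the values of the axis was not tested beyond the muscle covariate and the correlations given below.

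S51, a Rag2-/- tumor outside the 15 listed, was the highest of the 19 tumors for 6 of the 9 axis genes, 24 of 28 targets, 11 of 15 type I response genes, 6 of 11 JAK-STAT genes and 5 of 12 inducers. Over all genes tested S51 was the highest for 8.11%. These counts describe 1 tumor with no replicate and carry no test. Against the median of the other 10 Rag2-/- tumors, S51 was higher by 4.64 log2 units for *Ifng*, 3.67 for *Batf2*, 3.09 for *Socs1*, 3.01 for *Irf1*, 2.11 for *Irf8* and 1.09 for *Jak2*. *Irf1* reached 225 normalized FPKM against at most 35.2 in any other tumor, and *Socs1* 80.4 against 16.8. The receptor chains and *Jak1* were not raised in the same way. *Ifngr1* was 0.49 below that median and ranked 15th of 19, and *Ifngr2* and *Jak1* were 0.43 and 0.30 above it and ranked 4th and 7th.

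The rest of the response in S51 was read from the lists, with genes named here after their values were seen. *Nos2*, the inducible nitric oxide synthase of activated macrophages, was at 6.64 against at most 1.99. *Cd274*, which encodes the checkpoint ligand PD-L1, was at 7.45 against at most 4.16. *Cxcl9*, a chemokine strongly dependent on interferon gamma, was at 8.72 against at most 6.43, and *Ido1* at 3.14 against at most 1.58. *B2m* and *Cd74*, abundant in all tumors, were not the highest in S51, ranking 3rd and 5th. Over the 28 targets the median gap to the other Rag2-/- tumors was 2.15, over the 15 type I genes 0.94, and over all genes -0.07. Among the inducers *Il27* was at 2.96 against at most 0.45, and *Il12rb1* at 3.21 against at most 1.54.

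S51 carried almost no T cell transcripts. Of 12 T cell genes, 10 were listed at 0 in it, including *Cd3e*, *Cd3d*, *Cd3g*, *Trac*, *Cd8a* and *Cd8b1*, and the other 2 were *Cd4* (-0.15), which some dendritic cells also transcribe, and *Cd28* (0.65). Its T cell mean, -2.73, was the 10th of the 11 Rag2-/- tumors. Its NK mean, 1.98, was the 4th of 11, and within that list, with genes here and in the next sentence named after their values were seen, *Gzma* (5.65), *Klrk1* (4.35), *Nkg7* (3.77) and *Ncr1* (1.51) were the highest of 19 tumors while *Klra4* ranked 14th, *Klrb1c* 13th and *Klrd1* 12th. Its mean of 6 neutrophil genes, 3.10, was the highest after S47, with *Csf3r* (4.31) and *Cxcr2* (2.0) the highest of 19 tumors and *Ly6g*, a defining marker, listed at 0. Its macrophage mean, 6.47, was the 5th of 11. S51 also had the highest muscle mean of the Rag2-/- tumors, 12.2, and the lowest mesenchymal mean of all 19, 5.87 against 6.29 in the next. *Xist* was at -3.32 in it. Its depth, 27.1 M fragments, was within the range of the others. The part of neutrophil or muscle content, host sex or tissue sampling in the values of S51 was not tested.

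**Figure D4:**
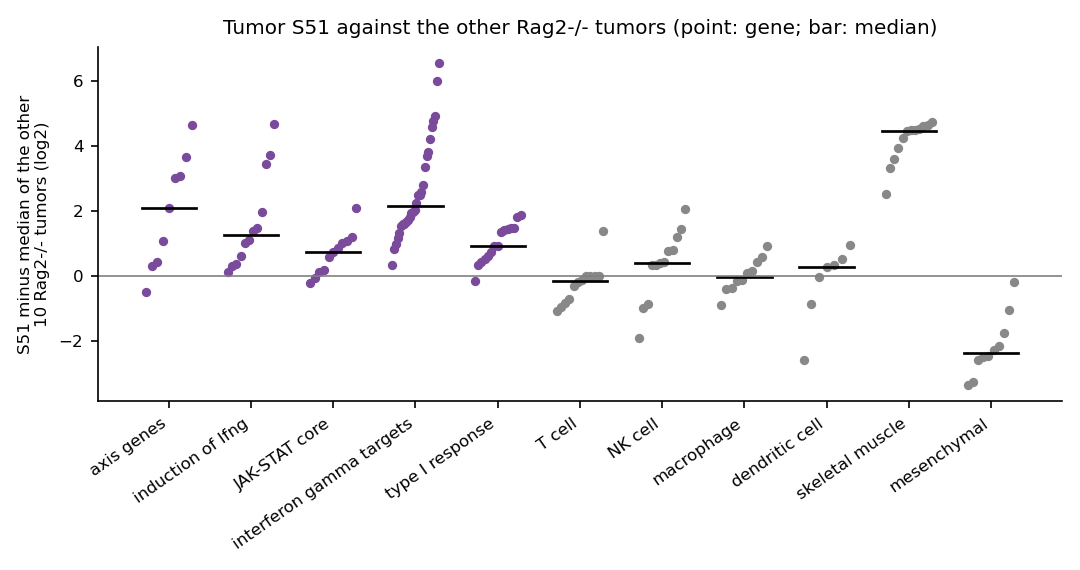
S51 minus the median of the other 10 Rag2-/- tumors, in log2 units, 1 point a gene, for the axis, 4 pathway lists (purple) and 6 cell type lists (grey), with list medians as bars. The medians are 2.15 for interferon gamma targets, -0.15 for T cell genes, 0.42 for NK cell genes, 4.47 for muscle genes and -2.36 for mesenchymal genes.

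Outside S51 the target levels of Rag2-/- tumors overlapped those of Rag2+/- tumors, at T cell means of -1.91 or lower. The target mean of the other 10 ran from 4.05 in S48 to 5.28 in S47. S47 had the most neutrophil transcripts, with a list mean of 3.85, and S48 the lowest NK mean of the Rag2-/- tumors, 0.47. In Rag2+/- tumors the target mean ran from 4.12 and 4.13 in S56 and S53, the 2 tumors with the lowest T cell mean (both -0.18), to 5.70 in S55, with the highest (1.84). S55 also had the highest NK and macrophage means of the Rag2+/- tumors, 1.67 and 6.79, and S56 the lowest, -1.24 and 4.83, and the lowest dendritic cell mean, -1.12.

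Relations across tumors were computed within each genotype, 28 in all, between *Ifng* and the 8 other axis genes and between cell type means and *Ifng* or *Irf1*. By Pearson's r 7 had an adjusted permutation p under 0.05, and by Spearman's rho none did. In Rag2+/- tumors *Ifng* and *Irf8* had r = 0.93 (exact permutation p = 0.00119, adjusted 0.0264) and rho = 0.83 (exact permutation p = 0.0172, adjusted 0.0687, n = 8). Without S53 and S56, farthest from the median of *Ifng* and both at its floor, r was 0.82 (exact permutation p = 0.0458). The T cell mean and *Irf1* had r = 0.88 (exact permutation p = 0.00188, adjusted 0.0264) and rho = 0.90 (exact permutation p = 0.00456, adjusted 0.0565), with r = 0.79 without the same 2 tumors (exact permutation p = 0.0778). The T cell mean and *Ifng* had r = 0.85 (exact permutation p = 0.00466, adjusted 0.0386) and rho = 0.90 (exact permutation p = 0.00516, adjusted 0.0565), and *Ifng* and *Batf2* r = 0.80 (exact permutation p = 0.00689, adjusted 0.0386) and rho = 0.89 (exact permutation p = 0.00605, adjusted 0.0565). These fell to 0.58 and 0.67 without the 2 tumors (exact permutation p = 0.243 and 0.149), and so rest in part on S53 and S56. The NK mean and *Irf1* had r = 0.68 (exact permutation p = 0.0662, adjusted 0.116) and rho = 0.86 (exact permutation p = 0.0107, adjusted 0.0687), and r = 0.84 without S56 and S60, farthest from the median of the NK mean (exact permutation p = 0.0389). The NK mean and *Ifng* had r = 0.69 (exact permutation p = 0.0564, adjusted 0.105) and rho = 0.60 (exact permutation p = 0.125, adjusted 0.206), and r = 0.83 without S56 and S60 (exact permutation p = 0.0194) but 0.41 without S56 alone (exact permutation p = 0.383). The macrophage mean had rho = 0.81 with *Irf1* (exact permutation p = 0.0218, adjusted 0.0762) against r = 0.48 (exact permutation p = 0.255), and r = 0.71 with *Ifng* (exact permutation p = 0.0262, adjusted 0.0816) and rho = 0.73 (exact permutation p = 0.0485, adjusted 0.127). Without S55 and S56 these r values were 0.36 and 0.33. With *Ifng* at no more than 20 fragments in these tumors, its own counting error is large.

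In Rag2-/- tumors several relations of *Ifng* moved when S51 was left out. *Ifng* and *Ifngr1* had r = -0.17 (permutation p = 0.585) with S51 and 0.32 without it (permutation p = 0.368). *Ifng* and *Irf1* had r = 0.87 (permutation p = 0.0117, adjusted 0.0466, n = 11) and rho = 0.60 (permutation p = 0.0577, adjusted 0.127), and r was 0.38 without S51 (permutation p = 0.277). With *Jak2*, *Socs1* and *Batf2* r was 0.82, 0.80 and 0.78, none with an adjusted permutation p under 0.05, and at most 0.17 without S51. *Ifng* and *Irf8* had r = 0.82 (permutation p = 0.00943, adjusted 0.044) and rho = 0.73 (permutation p = 0.0136, adjusted 0.0687), and r = 0.45 without S51 (permutation p = 0.195) but 0.71 in the 8 listed tumors (exact permutation p = 0.0534), which do not include it. *Ifng* and *Ifngr2* had r = 0.72 (permutation p = 0.0067, adjusted 0.0386) and rho = 0.59 (permutation p = 0.0637, adjusted 0.127), and r = 0.52 without S51 (permutation p = 0.126) but 0.75 in the listed tumors (exact permutation p = 0.0402, not adjusted). In these tumors 4 to 10 of the 12 T cell genes were listed at 0 in each, *Cd3e* in all, so their mean rests on the rest of the list, such as *Cd4* and *Cd28*, and is no measure of T cells. It was highest, -1.91, in the macrophage-rich S46. This mean and *Irf1* had r = -0.20 and rho = 0.25 over the 11 tumors (permutation p = 0.625 and 0.467), and r = 0.51 and rho = 0.55 without S51 (permutation p = 0.129 and 0.105, not adjusted). The same mean and *Ifng* had r = 0.02 and rho = 0.35 over the 11 tumors (permutation p = 0.96 and 0.294), and r = 0.61 and rho = 0.69 without S51 (permutation p = 0.0627 and 0.0328, not adjusted). The NK mean and *Irf1* had r = 0.41 and rho = 0.62 (permutation p = 0.209 and 0.0477, adjusted 0.326 and 0.127), and r = 0.67 and rho = 0.60 without S51 (permutation p = 0.0309 and 0.0731, not adjusted). The macrophage mean and *Irf1* had r = 0.14 and rho = 0.57 (permutation p = 0.576 and 0.0698), and r = 0.57 and rho = 0.62 without S51 (permutation p = 0.0793 and 0.0604, not adjusted). In the 8 listed tumors the NK and macrophage means had r = 0.77 and 0.80 with *Irf1* (exact permutation p = 0.0259 and 0.0206, not adjusted). Without the 2 of the 11 tumors farthest from the median of each mean, these r values were 0.23 and 0.22 (permutation p = 0.561 and 0.595). The NK mean and *Ifng* had r = 0.33 and rho = 0.09 (permutation p = 0.339 and 0.793), and 0.24 and 0.04 without S51. The macrophage mean and *Ifng* had r = 0.09 and rho = 0.35 (permutation p = 0.742 and 0.292), and 0.19 and 0.40 without S51. *Ifng* and *Ifngr2* had the opposite sign in Rag2+/- tumors, r = -0.72 (exact permutation p = 0.0457, adjusted 0.0955) and rho = -0.72 (exact permutation p = 0.0525, adjusted 0.127). That difference between genotypes was not tested.

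**Figure D5:**
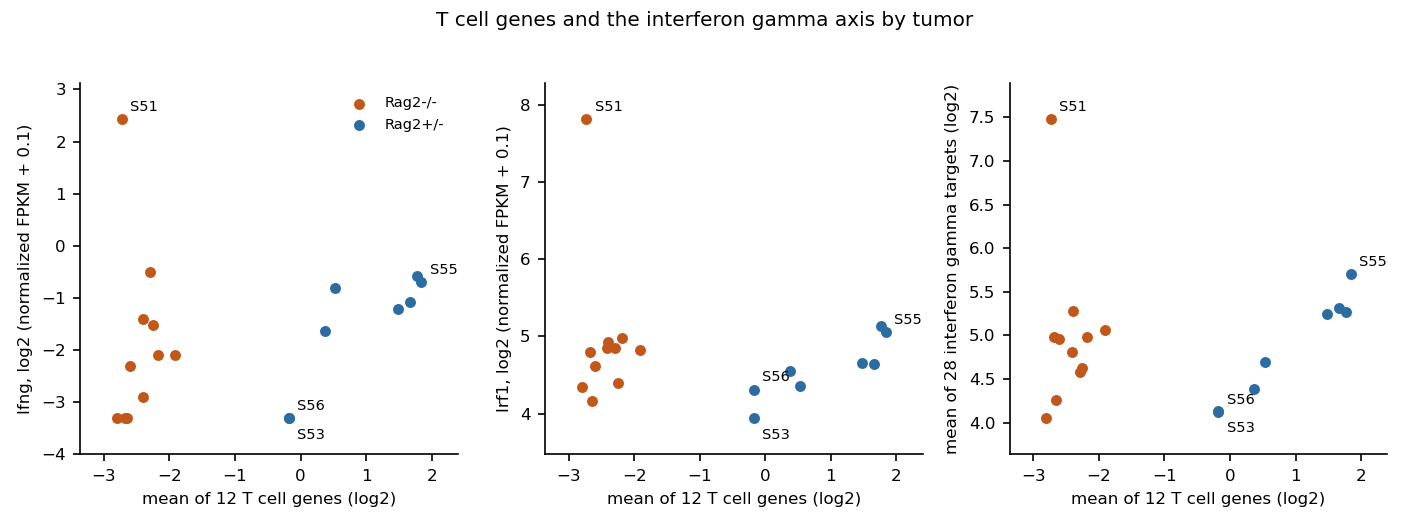
*Ifng*, *Irf1* and the mean of 28 interferon gamma targets (vertical, log2) against the mean of 12 T cell genes (horizontal, log2) in 11 Rag2-/- (orange) and 8 Rag2+/- (blue) tumors. S51 lies at the top of each panel at a T cell mean of -2.73, and the Rag2+/- tumors run from S53 and S56 at -0.18 to S55 at 1.84.

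The genes whose order across tumors was most like that of *Ifng* and *Irf1* were picked by Spearman's rho among 16593 genes, the axis left out, with no test. For *Ifng* they were *Gm17334* (0.92), *Ltb4r1* (0.917), *Proscos* (0.892), *1700120B22Rik* and *Gm26716* (0.89 each, 3 genes tied) over the 11 Rag2-/- tumors. *Gm17334* is the gene annotated across *Irf1*. Over the 8 Rag2+/- tumors they were *Phf11c* and *Sh3bp2* (0.994 each) and *Def6*, *Dok3* and *H2-D1* (0.97 each), with 11 genes tied at the last value. For *Irf1* they were *Susd6* (0.945), *Klra8* and *Slc2a6* (0.936 each), *Fbxl22* (0.90) and *Gm20412* (0.891) in Rag2-/- tumors. In Rag2+/- tumors they were *Pdcd1* (1.0), which encodes the checkpoint receptor PD-1, and *B230307C23Rik*, *Fcgr4*, *Gimap5* and *H2-T22* (0.976 each), 4 of 7 genes tied at that value. The points of each ranking share only 11 or 8 tumors, so high values arise among many genes.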

How the data were processed

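RNA of 19 tumors was sequenced in 150 base paired-end reads. The deposited values are the authors' log2 of upper-quartile normalized FPKM plus 0.1, made per the study's methods with Omicsoft Array Studio on mouse B38 with Ensembl R86 models and at most 2 mismatches. Submitters' processing notes name Trimmomatic 0.36, STAR 5.5.4b and HTSeq on mm10, with no role given. Count models were not applied, since the unit is not a count. Samples were grouped by the genotype label, and 0 columns were left unmatched.

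Genes with normalized FPKM above 0.1 in at least 8 tumors (16663) were fitted with limma 3.58.1 in R 4.3.3 (genotype, intensity trend, all 19 tumors), with Benjamini-Hochberg adjustment at 0.05. Fold changes are on the log2 (value + 0.1) scale, which understates changes of low genes. Single genes had a two-sided exact permutation test, and correlations in 11 tumors 100000 permutations. The limma step was tested on simulated differences. Depth was estimated from genes with 1 transcript (GENCODE vM21) whose low values step in whole fragments, within a tolerance of 0.05 of a fragment. Gene coordinates are GRCm38.

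Alternatives were the 15 listed tumors, each tumor left out, pseudocounts of 1 and 0.01, filters on the mean above 0 or 2 or none, quantile or median scaling, no trend, array weights, and *Xist* or muscle as covariates. List counts without S51 or with a covariate were added after values were seen. The members, lists and tests were chosen with earlier results of these data known. Genes named are the axis genes, *Rag2*, *Xist*, *Cd3e* and other defining markers, called genes of a list (at most 6, lowest p first) or up to 4 with the lowest p where fewer than 4 were called, and the 5 genes most like *Ifng* and *Irf1*. Others are said to be named after their values were seen. List genes outside this rule enter the counts only, and 1 further gene of the pathway lists is not reported here.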

Additional observations from a re-analysis of the deposited data

Results flagged for a closer look

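*Batf2* in the Rag2+/- tumor S53 was at -0.06, a gap of 1.35 log2 units below the next of the 8 Rag2+/- tumors and 0.545 of their whole range, and so stood apart from the others by Dixon's criterion. It was the 1 such tumor among 9 genes examined in Rag2+/- tumors. Chance gives about 1 in 20 for each gene taken alone, so 1 among 9 is not unusual. S53 was also the lowest Rag2+/- tumor for *Irf1* (3.94), *Jak2* (3.54), *Socs1* (2.65) and *Jak1* (5.44) and the highest of all 19 for *Ifngr2* (5.47), and it was listed at 0 for *Ifng*. The criterion was applied to groups of at most 10 tumors, so the 11 Rag2-/- tumors, S51 among them, were not examined by it.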

How the results depend on the processing

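Over 32 alternatives no axis gene was called by limma, and 271 of 285 values for the 9 genes kept their sign. The other 14 had unadjusted limma p-values of 0.213 or more. *Ifng* was 0.04 with a pseudocount of 1, 0.04 with *Xist* and 0.34 with muscle as covariate. *Irf8* was -0.07 in the 15 listed tumors. *Socs1* was -0.01 in the listed tumors, -0.10 with array weights and -0.11 without S41, S51 and S56, an alternative chosen after their values were seen. *Batf2* was -0.33, -0.41 and -0.25 under the same 3 and -0.03 with quantile normalization. With muscle as covariate, values not given above were 0.27 for *Ifngr1*, -0.01 for *Jak1*, 0.65 for *Irf8*, 0.42 for *Socs1* and 0.57 for *Batf2*. Leaving out each tumor gave ranges of -0.70 to -0.12 for *Ifng*, 0.22 to 0.46 for *Ifngr1*, -0.35 to -0.26 for *Ifngr2*, -0.22 to -0.13 for *Jak1*, -0.39 to -0.21 for *Jak2*, 0.09 to 0.46 for *Irf1*, 0.23 to 0.51 for *Irf8*, -0.13 to 0.27 for *Socs1* (negative without S51) and -0.29 to 0.17 for *Batf2* (negative without S51, and at -0.19 without S53). The cause was not tested.

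Genes called higher in Rag2-/- tumors, 0 with all 19, were 13 in the listed tumors, 16 with array weights, 1 with muscle, 4 without S41, S51 and S56, and 0 to 11 leaving out each tumor, 11 being without S51. Genes called lower, 22 with all 19, were 37, 35, 18 and 35 under the same settings, 34 with no filter, 4 and 0 with a mean filter above 0 and 2, and 19 to 32 leaving out each tumor. T cell genes called, 9, were 0 under both mean filters, which remove genes low in most tumors, and 8 to 9 leaving out each. NK genes called, 0, were 1 with array weights and 1 with muscle, and 0 to 1 leaving out each. Pathway list genes called stayed at 0 in all of them.

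Among correlations in Rag2-/- tumors, *Ifng* with *Ifngr1* (-0.17) was 0.26 without the 2 tumors farthest from the median and 0.62 in the listed tumors, *Ifng* with *Batf2* (0.78) was -0.34 in the listed tumors, the T cell mean with *Ifng* (0.02) was -0.10 without the 2 farthest but 0.70 in the listed tumors, the NK mean with *Ifng* (0.33) was -0.04 without the 2 farthest, and the T cell mean with *Irf1* (-0.20) was 0.65 in the listed tumors. No paired analysis was possible because the labels pair no tumors across genotypes. Depth limits *Ifng* most, at 20 fragments or fewer outside S51.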
